A study of Mus musculus with 6 samples.

Results

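Ndel1, Coq10b and Trp53inp2 are 3 of the 54532 genes counted in RNA-seq libraries of AE9a leukemia cells from the endosteal and the central bone marrow. They were selected on their measured levels, because every library from the endosteal bone marrow (EBM) lay above every library from the central bone marrow (CBM). The difference between the regions is therefore a description for these genes and was not tested. All 3 were counted highly enough to be among the 13352 genes that entered the fit.

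AE9a is AML1-ETO9a, a splice form of the AML1-ETO fusion that causes acute myeloid leukemia in mice. The leukemia was made by infecting c-Kit+ stem and progenitor cells with AE9a retrovirus, and cells of the third generation of transplanted C57BL/6 mice were sequenced, with no treatment in either group. CBM cells (3 libraries) were flushed from femurs and tibias, and the femurs and tibias were then treated with collagenase to release EBM cells (3 libraries). Only the EBM cells thus went through a digestion. Region and digestion coincide in every library and cannot be told apart. The labels number the libraries 1 to 3 in each region but do not say whether they came from separate mice. Nor do they say which CBM and EBM libraries share a mouse, so spreads and p-values below describe these libraries.

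The 3 genes belong to different cell machinery. NDEL1 binds LIS1 and cytoplasmic dynein, the motor that walks towards the minus ends of microtubules, and takes part in positioning the centrosome, the nucleus and the mitotic spindle. COQ10B is a mitochondrial protein that binds coenzyme Q, the lipid that carries electrons between the respiratory complexes. TRP53INP2 moves between nucleus and cytoplasm, where it binds the ATG8 proteins of the autophagosome, and in the nucleus it acts as a coactivator of thyroid hormone receptor.

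The genes lie on different chromosomes of the mouse genome build GRCm38. Ndel1 (ENSMUSG00000018736) is on the minus strand of chromosome 11 from 68821434 to 68871858, and GENCODE M21 gives it 6 transcripts, of which 3 are protein coding with 8 to 9 exons. Coq10b (ENSMUSG00000025981) is on the plus strand of chromosome 1 from 55052770 to 55072702, with 4 transcripts, 2 of them protein coding with 4 to 5 exons. Trp53inp2 (ENSMUSG00000038375) is on the plus strand of chromosome 2 from 155381059 to 155389850, with 5 transcripts, 4 of them protein coding with 3 to 4 exons. The level pattern that the genes share is the rule that chose them, and shared regulation was not tested. Of the region upstream of each RefSeq start site, the 220 bases from -250 to -31 are printed on the gene's strand. They are chr11:68853166-68853385, chr1:55052520-55052739 and chr2:155381606-155381825 in RefSeq's GRCm38.p6. Capitals mark TGACG or its reverse complement CGTCA, the half-site of the cyclic AMP response element, which was chosen for display after the sequences were seen.
Ndel1: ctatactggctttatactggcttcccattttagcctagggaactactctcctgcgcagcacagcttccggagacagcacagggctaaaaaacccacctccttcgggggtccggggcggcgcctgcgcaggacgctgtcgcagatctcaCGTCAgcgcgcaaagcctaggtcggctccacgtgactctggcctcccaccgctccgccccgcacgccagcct
Coq10b: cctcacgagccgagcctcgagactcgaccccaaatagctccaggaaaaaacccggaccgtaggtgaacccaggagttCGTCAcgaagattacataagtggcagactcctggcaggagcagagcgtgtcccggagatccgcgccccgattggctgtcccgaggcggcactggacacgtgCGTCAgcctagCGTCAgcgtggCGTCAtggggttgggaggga
Trp53inp2: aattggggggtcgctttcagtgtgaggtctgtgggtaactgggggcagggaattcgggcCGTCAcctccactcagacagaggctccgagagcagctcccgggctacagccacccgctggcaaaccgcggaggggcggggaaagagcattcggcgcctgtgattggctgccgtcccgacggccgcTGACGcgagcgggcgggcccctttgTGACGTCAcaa

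The Ndel1 stretch has 1 capital match, Coq10b has 4 and Trp53inp2 has 4, of which a pair overlaps in the palindrome TGACGTCA. Of all 32851 promoter windows of 250 bases, 17.8% held TGACG on either strand and 3.9% held it at 2 or more places. Among the 5896 windows with at least 20 CpG dinucleotides, a count that Ndel1 (20), Coq10b (21) and Trp53inp2 (22) reach, these shares were 32.8% and 10.3%. The median window had 6 CpG and a GC content of 52.4%, and the windows of Ndel1, Coq10b and Trp53inp2 had 63.6%, 62.0% and 64.8%. Of the paralogs, Nde1 had 0 matches of TGACG and Coq10a had 1, in 1 of its pair of windows, and no window was at hand for Trp53inp1.

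Of the motifs listed for the search, with both strands read, the 6-base TGACGT was in the windows of Ndel1 and Trp53inp2 and in 6.47% of all windows. The E-box CACGTG was in those of Ndel1 and Coq10b and in 6.02% of all. The hypoxia response core ACGTG, which lies inside CACGTG, was matched 3 times in Ndel1 and 2 times in Coq10b, and 16.6% of windows held it. Both matches in Coq10b, and 2 of those in Ndel1, are the same CACGTG read on each strand. GCGTG, the other form of that core, was matched 1 time in Ndel1 and 3 times in Coq10b, with 28.2% of windows holding it. Neither form was in the Trp53inp2 window. Several of these letters are more common in the windows with at least 20 CpG, to which all 3 genes belong. There GCGTG was held by 61.1% and the GC box GGGCGG by 80.9%, ACGTG by 25.5%, TGACGT by 11.7% and CACGTG by 10.1%. The GC box GGGCGG was in Ndel1 and Trp53inp2 and in 32.7% of windows, and the CCAAT box was in Coq10b and Trp53inp2 and in 33.8% of windows. The RUNX letters TGNGGT were in Coq10b and Trp53inp2 and in 40.1% of windows. The letters TATAAA were in Ndel1 alone of these genes, at -240 to -235 and on the opposite strand. They were in 12.4% of windows and in 2.71% of those with at least 20 CpG. No member window held the heat shock pair GAANNTTC (6.69% of windows), the NF-κB letters GGGNNTTCC (4.98%) or the AP-1 letters TGANTCA (6.75%). These are matches of letters in one window and no measurement of binding. The last 42 bases of the Trp53inp2 window are annotated as first exon of other transcripts, 2 of which reach into the window, and the palindrome (-41 to -34) lies inside the longer of these exons. In addition, 3 longer Ndel1 transcripts run across the Ndel1 window as intron, and 1 Trp53inp2 transcript spans the Trp53inp2 window.

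The libraries held between 16436526 and 19462964 reads assigned to genes, and levels are given as CPM, reads scaled to library size with TMM factors between 0.948 and 1.037. A floor of 3 counts was between 0.149 and 0.193 CPM. The levels of the genes expected in leukemia progenitors were uneven. Kit was between 196 and 239 CPM in every library, while Ptprc, the common leukocyte gene, was between 0.0992 and 3.58 CPM. Over the libraries Runx1 was between 330 and 722 CPM, Cd34 between 1.16 and 16.4 CPM and Mpo between 1.65 and 35.8 CPM. Osteoblast markers, of which 3 of 7 had 0 counts in every library, summed to between 0.0496 and 0.369 CPM in CBM and to at most 0.779 CPM in EBM, and stromal markers to at most 1.0 CPM in either region. Neutrophil markers summed to between 3.27 and 214.8 CPM in CBM and between 33.3 and 154.2 CPM in EBM, and erythroid markers to between 2096 and 5210 CPM in CBM and between 2422 and 3614 CPM in EBM. Endothelial markers summed to at most 3.37 CPM in any library, macrophage markers to at most 8.11 CPM, B cell markers to at most 1.0 CPM and T cell markers to at most 0.390 CPM. None of the tested marker genes was at an unadjusted p under 0.05. In bulk RNA, fewer cells of a type and less RNA per cell cannot be told apart.

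Trp53inp2 differed most between the regions. In the order of the replicate numbers it had 47, 58 and 29 counts in CBM, against 240, 215 and 167 in EBM. The lowest EBM library held more reads of this gene than the CBM libraries together, and CBM replicate 3 was the lowest of all. Scaled, it was at 2.67, 3.05 and 1.44 CPM in CBM, against 13.2, 11.97 and 10.7 CPM in EBM. The CBM mean was 2.39 ± 0.844 CPM and the EBM mean 11.98 ± 1.26 CPM (SD, n = 3 each), 5.02 times as high. The fitted log2FC, the log2 fold change of EBM over CBM, was 2.33 (standard error 0.297).

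Coq10b had 275, 351 and 331 counts in CBM and 573, 581 and 565 counts in EBM, in the order of the replicate numbers. Scaled to library size these were 15.6, 18.5 and 16.4 CPM in CBM and 31.6, 32.3 and 36.3 CPM in EBM. EBM replicate 3 was the highest library and CBM replicate 1 the lowest, and the regions did not overlap. The CBM mean was 16.8 ± 1.46 CPM and the EBM mean 33.4 ± 2.52 CPM (SD, n = 3 each), a ratio of 1.98, with a log2FC of 0.99 (standard error 0.122).

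Ndel1 was the most abundant and least variable of the genes. CBM replicates held 1123, 1093 and 1138 of its reads, and EBM replicates 1821, 1704 and 1579, again in numerical order. In CPM it was 63.9, 57.5 and 56.5 in CBM and 101, 94.9 and 101 in EBM. EBM replicate 3, which has the fewest counts of the EBM libraries, is also the smallest library and does not stand below the others once scaled. The CBM mean was 59.3 ± 4.02 CPM and the EBM mean 98.9 ± 3.57 CPM (SD, n = 3 each), with a ratio of 1.67 and a log2FC of 0.74 (standard error 0.091).

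**Figure D1:**
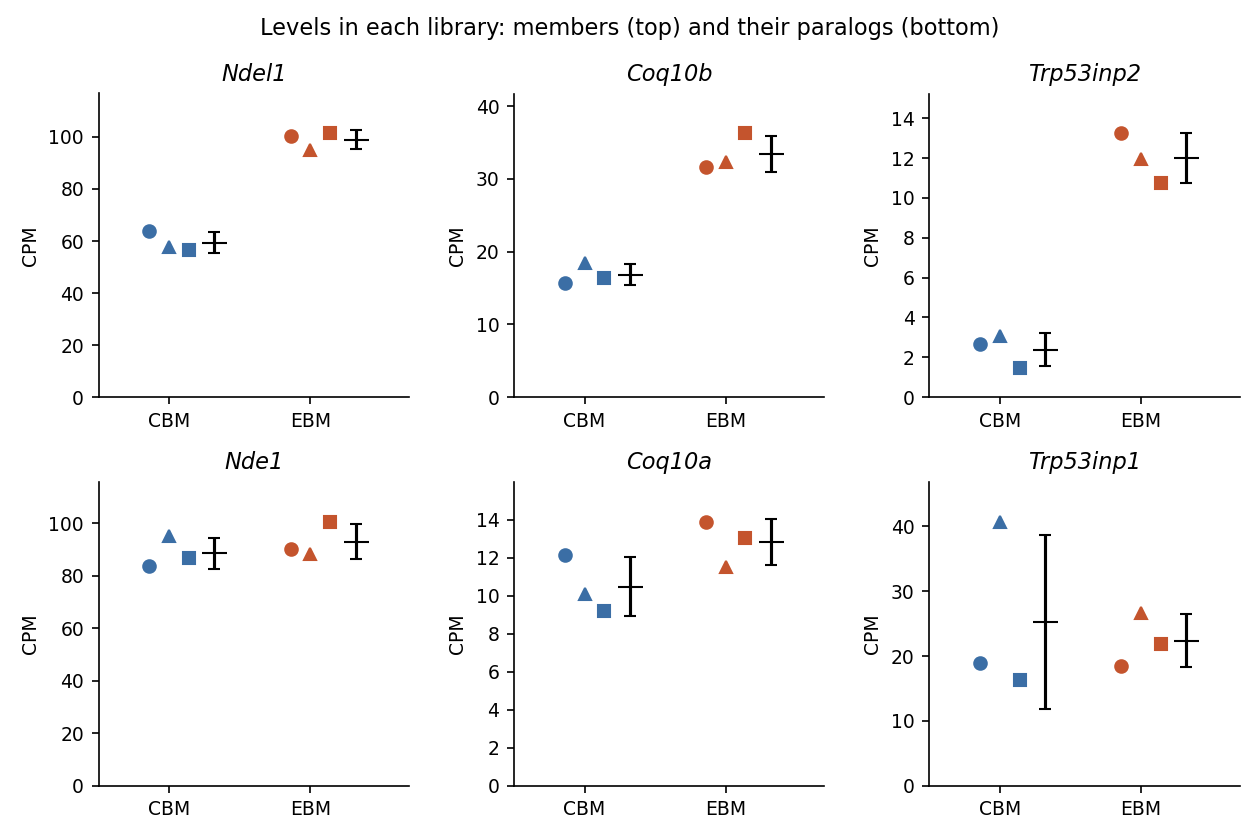
Level in CPM (vertical axes from 0) in each CBM (blue) and EBM (orange) library of Ndel1, Coq10b and Trp53inp2 in the top row and of their paralogs Nde1, Coq10a and Trp53inp1 in the bottom row. Circles, triangles and squares are replicates 1, 2 and 3, the black bars are the mean and SD of 3 libraries, and the regions are apart in every panel of the top row and overlap in every panel of the bottom row. The genes of the top row were chosen because the regions are apart.

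Per kilobase of gene the order of the levels was the same in both regions. Ndel1 was at 18.2 ± 1.24 RPKM (CPM per kilobase of the deposited gene length) in CBM and 30.4 ± 1.10 RPKM in EBM, Coq10b at 3.51 ± 0.304 and 6.96 ± 0.524 RPKM, and Trp53inp2 at 0.454 ± 0.161 and 2.28 ± 0.240 RPKM (SD, n = 3 each). Each step in this order was larger than the spread between libraries. Among all tested genes Trp53inp2 was at percentile 8.67 of the mean level in CBM and at 28.7 in EBM, Coq10b at 35.6 and 50.3, and Ndel1 at 75.5 and 84.9.

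In the table as a whole, 998 of 13352 genes (7.47%) had every EBM library above every CBM library, and 1022 (7.65%) had every EBM library below. These shares show how common the property is by which the genes were chosen. The distance between the lowest EBM and the highest CBM library, in log2 CPM, was 1.78 for Trp53inp2, 0.77 for Coq10b and 0.57 for Ndel1, and the median over the 998 genes was 0.08. By this distance Trp53inp2 ranked 3, Coq10b 32 and Ndel1 56 among all tested genes, and by log2FC they ranked 19, 217 and 382. At the edge of the property, Ttll5 lay just inside with a distance of 0.00057 and Taf10 just outside with -8.15e-05.

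**Figure D2:**
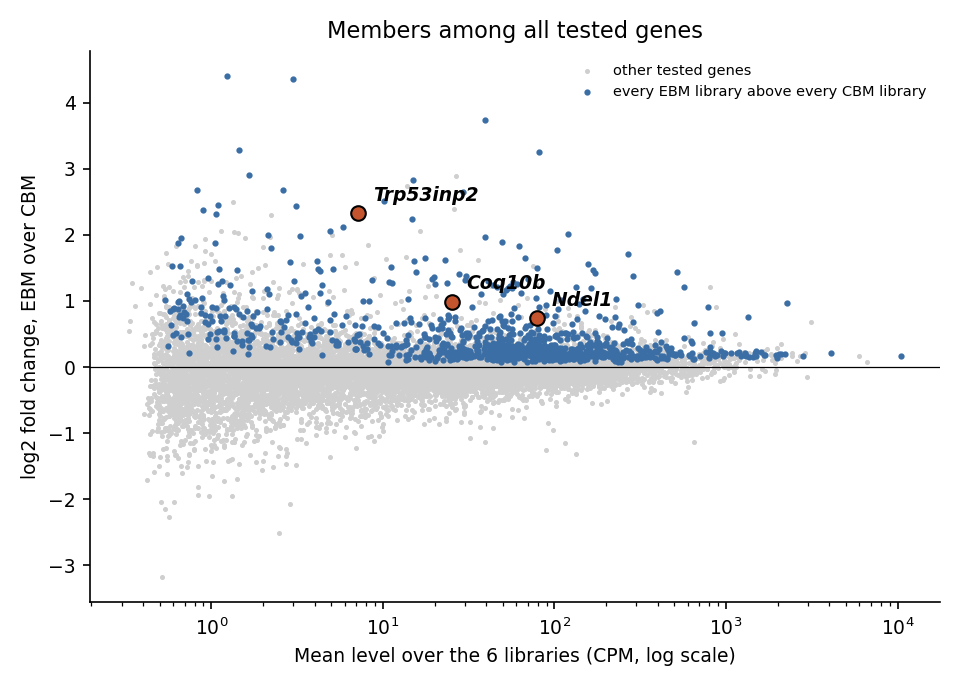
Log2 fold change of EBM over CBM against the mean CPM of the 6 libraries (log axis) for the 13352 tested genes. Blue points are the 998 genes with every EBM library above every CBM library, grey points the other genes, and the black-edged orange points Ndel1, Coq10b and Trp53inp2, which have log2 values of 0.74, 0.99 and 2.33 and lie above most genes of a like mean level. These genes were chosen for being higher in EBM.

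The variation of the 3 genes within a region was described without a test. The coefficient of variation between libraries was 6.78% in CBM and 3.61% in EBM for Ndel1, 8.68% and 7.53% for Coq10b, and 35.3% and 10.5% for Trp53inp2. The median over tested genes was 14.4% in CBM and 14.6% in EBM. Over the 6 libraries log2 CPM correlated with r between 0.952 and 0.966 for the 3 pairs of genes, and all of them were chosen for the region difference. After subtracting the mean of each region, r was -0.26 between Ndel1 and Coq10b, 0.385 between Ndel1 and Trp53inp2 and 0.124 between Coq10b and Trp53inp2, over the same 6 libraries and without a test. The library highest within its region also differed, since in CBM it was replicate 1 for Ndel1 and replicate 2 for the other two, and in EBM it was replicate 1 for Trp53inp2 and replicate 3 for the other two.

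The genes whose log2 CPM followed each of them most closely over the 6 libraries were found by Pearson's r, given without a test. For Ndel1 these were Znrd1 (r = 0.994), Tjap1 (r = 0.992) and Bcl10 (r = 0.99). For Coq10b they were Pard6a (r = 0.998), Supv3l1 (r = 0.997) and a gene listed only by a clone name (r = 0.993). For Trp53inp2 they were Cln8 (r = 0.998), Psd (r = 0.996) and Nfkb2 (r = 0.994). The r of log2 CPM includes the region difference for which Ndel1, Coq10b and Trp53inp2 were chosen. Other genes higher in EBM can rank high for that reason alone, and a shared pathway was not tested. An r of at least 0.9 was reached by 246 genes for Ndel1, 245 for Coq10b and 214 for Trp53inp2, out of 13351 compared. For deviations from the region means, this r was reached by 101 genes for Ndel1, 1385 for Coq10b and 143 for Trp53inp2, out of the same 13351. A high r over 6 libraries was thus not particular to the genes named here. The closest genes were Rbks, Phf2 and Gm13033 for Ndel1 (r between 0.986 and 0.995), 8030462N17Rik, Cnppd1 and Crat for Coq10b (r between 0.9992 and 0.9995) and Dusp8, Gm15726 and Ubl7 for Trp53inp2 (r between 0.995 and 0.997). None of the genes closest by deviations was among those closest by level.

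Each of the genes has a paralog in the table, and none of the paralogs passed the test. Nde1, which binds the same partners as NDEL1, was at 83.6, 95.2 and 86.7 CPM in CBM and 90.0, 88.2 and 101 CPM in EBM, so the regions overlapped (log2FC 0.07, edgeR adjusted p = 0.95). Coq10a was at 12.2, 10.1 and 9.18 CPM in CBM and 13.9, 11.5 and 13.0 CPM in EBM, also with overlap (log2FC 0.29, edgeR adjusted p = 0.733). Trp53inp1, a stress gene that binds ATG8 proteins as well, was at 18.9, 40.7 and 16.3 CPM in CBM and 18.5, 26.7 and 21.9 CPM in EBM, and its CBM replicate 2 was the highest library (log2FC -0.18, edgeR adjusted p = 0.977).

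The balance within each pair was also described. Per unit of length Ndel1 was 0.663 ± 0.0809 times Nde1 in CBM and 1.05 ± 0.0538 times in EBM. Coq10b was 0.875 ± 0.162 times Coq10a in CBM and 1.40 ± 0.161 times in EBM. Trp53inp2 was 0.125 ± 0.0435 times Trp53inp1 in CBM and 0.679 ± 0.178 times in EBM (SD, n = 3 each). These ratios are given without a test, since their numerators were chosen for the difference.

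Whether the partners of the 3 genes differed between the regions was asked with edgeR's quasi-likelihood test, adjusted over all 13352 genes. At an adjusted p under 0.05 it called 0 genes (0% of those tested). Without adjustment, p was under 0.05 for 535 genes higher in EBM (4.01%) and 521 lower (3.9%). By the same threshold on the adjusted p there were 175 genes in DESeq2 and 0 in limma-voom. The counts below are read against these shares. The median log2FC of all tested genes was 0.002.

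Of the dynein and dynactin subunits, 16 of 19 were tested. None passed an adjusted p of 0.05 in edgeR, and DESeq2 likewise called 0. Unadjusted, 2 genes were higher and 0 lower at p under 0.05, and without CBM replicate 3, EBM replicate 1 or EBM replicate 3 there were 0, without CBM replicate 1 there was 1. The list's median log2FC was 0.14, with 14 genes above 0. Dctn3, a dynactin subunit, averaged 54.1 ± 6.44 CPM in CBM against 68.6 ± 2.98 CPM in EBM (log2FC 0.34, edgeR adjusted p = 0.516), and Actr1a, which forms the filament of dynactin, was 123.7 ± 3.29 and 144.9 ± 10.4 CPM (log2FC 0.23, edgeR adjusted p = 0.596). Dync1li2, a light intermediate chain of dynein, went the other way, with 62.4 ± 1.51 CPM in CBM and 53.9 ± 3.30 CPM in EBM (log2FC -0.21, edgeR adjusted p = 0.639). Dynlrb1, a light chain, had a log2FC of 0.18 (edgeR adjusted p = 0.713).

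Of the partners and kinases of NDEL1 and the adaptors of dynein, 20 of 23 were tested, and 0 passed an adjusted p of 0.05 in edgeR or DESeq2. Unadjusted, 1 was higher and 1 lower at p under 0.05, and the 2 became 0 without CBM replicate 1 or EBM replicate 1 and 1 without CBM replicate 3 or EBM replicate 2. The median log2FC was -0.06. Pafah1b1, which encodes LIS1, was 211, 231 and 206 CPM in CBM and 234, 260 and 247 CPM in EBM, without overlap (log2FC 0.20, standard error 0.093, edgeR adjusted p = 0.678). Katna1, the catalytic subunit of the microtubule-severing enzyme katanin, had a log2FC of 0.27 (edgeR adjusted p = 0.581) and Ywhae, the 14-3-3 protein that binds phosphorylated NDEL1, of 0.20 (edgeR adjusted p = 0.669). The adaptors Rab11fip3 and Bicdl1 were lower in EBM, with log2FC values of -0.54 and -0.53 at levels of at most 5.92 CPM (edgeR adjusted p of 0.546 and 0.639).

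Of the genes of coenzyme Q synthesis, 13 of 15 were tested, and 0 passed an adjusted p of 0.05 in edgeR or DESeq2. The unadjusted p was under 0.05 for 1 gene higher and 0 lower in EBM, and the median log2FC was 0.07. Coq7, the hydroxylase near the end of the pathway, was 17.5, 18.4 and 17.2 CPM in CBM and 24.3, 22.8 and 22.6 CPM in EBM, without overlap (log2FC 0.40, standard error 0.110, edgeR adjusted p = 0.414). By p, Coq7 was followed by Coq5, a methyltransferase of the pathway, and Coq8b, a kinase-like protein, with log2FC values of 0.21 and 0.27 (edgeR adjusted p of 0.713 and 0.729), and then Coq10a. The summed level of the list was between 279.8 and 287.9 CPM in CBM and between 299.6 and 314.9 CPM in EBM.

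Among the enzymes that use coenzyme Q, 19 of 20 were tested, again with 0 at an adjusted p of 0.05 in edgeR or DESeq2. With no adjustment, p was under 0.05 for 1 gene higher and 0 lower, and for 2 in all without EBM replicate 2. The median log2FC was 0.09. Etfdh, which passes electrons from fatty acid and amino acid oxidation to coenzyme Q, was 62.2, 111 and 50.1 CPM in CBM and 136, 137 and 136 CPM in EBM (log2FC 0.87, standard error 0.280, edgeR adjusted p = 0.507). Its CBM libraries differed from one another by more than those of Coq10b, with CBM replicate 2 nearest to the EBM level. The complex III subunits Uqcrc2, Uqcrb and Uqcrfs1 had log2FC values of 0.20, 0.23 and 0.14 (edgeR adjusted p between 0.650 and 0.736).

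Of the ATG8 proteins and the genes of their conjugation to lipid, all 16 were tested and 0 passed an adjusted p of 0.05 in edgeR or DESeq2. Before adjustment, p was under 0.05 for 4 genes higher and 0 lower. This count was 2 without CBM replicate 1, EBM replicate 2 or EBM replicate 3 and 1 without CBM replicate 3. The median log2FC was 0.11. Gabarapl1, an ATG8 protein, was 107, 112 and 103 CPM in CBM and 132, 143 and 168 CPM in EBM (log2FC 0.46, edgeR adjusted p = 0.331). Its relative Gabarap had a log2FC of 0.32 (edgeR adjusted p = 0.572), Atg12 also of 0.32 (edgeR adjusted p = 0.582) and Atg16l2 of 0.78 (edgeR adjusted p = 0.528), with Atg16l2 at only 4.49 ± 0.550 CPM in CBM and 7.67 ± 2.14 CPM in EBM. The values of these genes were known from an earlier reading of the table.

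Of the TRP53INP2 paralog, partners and nuclear receptors, 13 of 15 were tested. In edgeR 0 passed an adjusted p of 0.05, and DESeq2 called 1, Sqstm1. At an unadjusted p under 0.05 there was 1 higher and 1 lower, and 1 in all without CBM replicate 1, CBM replicate 2, EBM replicate 1 or EBM replicate 3. The median log2FC was 0.01. Sqstm1, the autophagy receptor p62, had a log2FC of 0.82 with 323, 290 and 244 CPM in CBM and 540, 525 and 451 CPM in EBM (edgeR adjusted p = 0.17). Sirt1, a deacetylase, had a log2FC of -0.29 (edgeR adjusted p = 0.591), Traf6 of 0.16 (edgeR adjusted p = 0.73) and Vdr, the vitamin D receptor, of -0.96 (edgeR adjusted p = 0.749) at under 1 CPM in every library. Thra, a thyroid hormone receptor, was between 71.4 and 122 CPM in all libraries.

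**Figure D3:**
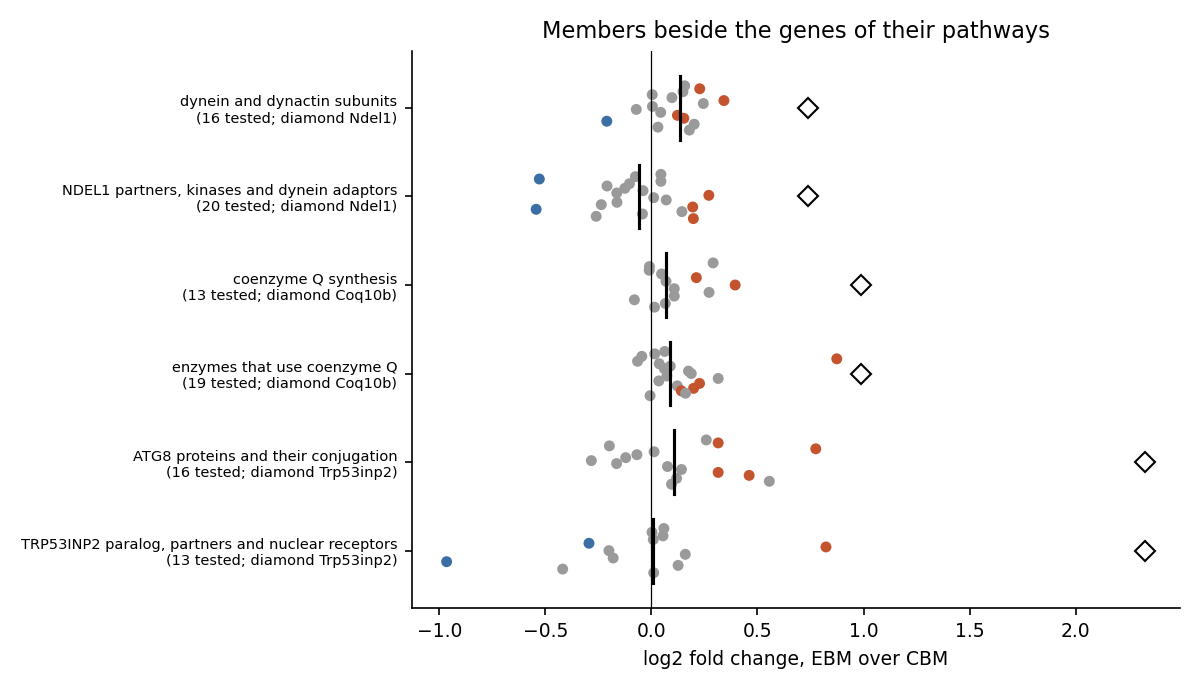
Log2 fold change of EBM over CBM (horizontal axis) for each tested gene of 6 lists around Ndel1, Coq10b and Trp53inp2. Orange points had every EBM library above every CBM library, blue points every EBM library below, and grey points overlapped. Black lines are list medians, between -0.06 and 0.14, and the open diamonds, which lie to the right of all points in each row, are Ndel1 (0.74), Coq10b (0.99) and Trp53inp2 (2.33). The genes of the diamonds were chosen for being higher in EBM and the list genes were not, so their positions are no test.

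Genes around the 3 loci were taken next, as all tested genes within 250 kb. Of the 12 such genes around Ndel1, 7 were above 0 and 5 below in log2FC, with a median of 0.01. The nearest on each side, Myh10 and Rnf222, had log2FC values of 0.00 and -0.56 (edgeR adjusted p of 1 and 0.803). Per1, a circadian clock gene 223359 bases away, had the largest, with 86.3, 112 and 97.5 CPM in CBM and 168, 225 and 289 CPM in EBM (log2FC 1.20, edgeR adjusted p = 0.182). It was the 1 gene of the 12 at an unadjusted p under 0.05 and the 1 that DESeq2 called.

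Coq10b has the mitochondrial chaperone genes Hspd1 and Hspe1 as neighbours, at 5133 and 15430 bases. Hspd1 averaged 322 CPM in CBM against 327 CPM in EBM (log2FC 0.02, standard error 0.16, edgeR adjusted p = 0.992), and Hspe1 had a log2FC of 0.17 (edgeR adjusted p = 0.798). On the other side Sf3b1, a splicing factor gene, had 0.07 (edgeR adjusted p = 0.946). Of the 7 neighbours 5 were above 0 and 2 below, with a median of 0.06, and Mars2 alone was at an unadjusted p under 0.05, with a log2FC of -0.48 (edgeR adjusted p = 0.31). Inside Coq10b lies Gm17971, a processed pseudogene on the same strand with 21 to 33 counts per library, and across its start on the other strand lies E330011M16Rik with 0 to 7. The strand setting of the counting is not given in the sources used here, and both hold few reads beside Coq10b itself.

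The 10 neighbours of Trp53inp2 had a median log2FC of 0.04, with 7 above 0 and 3 below, and 0 at an unadjusted p under 0.05. Ncoa6, which lies 806 bases beyond its end on the opposite strand, averaged 84.1 CPM in CBM against 80.8 CPM in EBM (log2FC -0.06, edgeR adjusted p = 0.954), and Pigu, on the other side, had 0.10 (edgeR adjusted p = 0.925). Map1lc3a, an ATG8 gene further upstream, had 0.56 with a standard error of 0.297 (edgeR adjusted p = 0.715). Over the 3 loci, 29 genes in all, none passed an adjusted p of 0.05 in edgeR.

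**Figure D4:**
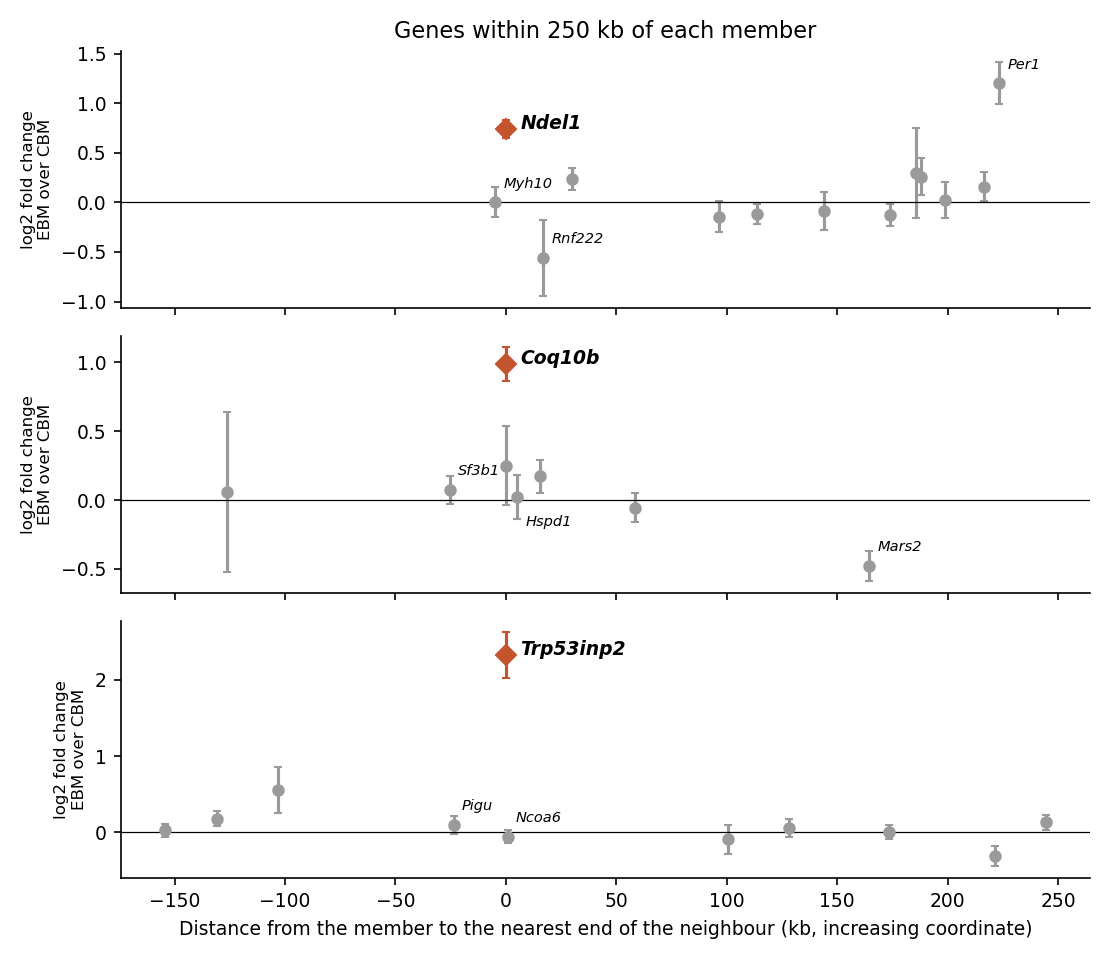
Log2 fold change of EBM over CBM with its standard error for the genes within 250 kb of Ndel1, Coq10b and Trp53inp2 (orange diamonds at 0), against the distance in kb. The nearest genes on each side and those at an unadjusted p under 0.05 are named, and all but Per1 lie below the diamond of their panel. Only the genes of the diamonds were chosen for being higher in EBM, so this is a description.

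Genes that tissue dissociation induces were read as a list of their own, since EBM cells alone were digested. Of the list, all 21 were tested, 16 with a log2FC above 0 and 5 below, and the median was 0.51. In edgeR 0 passed an adjusted p of 0.05, and DESeq2 called 3, of which Hspa1a and Hspa1b were higher and Dusp1 lower in EBM. At an unadjusted p under 0.05 there were 5 higher and 1 lower, and 10 in all without CBM replicate 1. Hspa1b, an inducible heat shock gene with a near-identical copy in Hspa1a, was 9.50, 3.74 and 3.37 CPM in CBM and 112, 50.3 and 58.6 CPM in EBM (log2FC 3.74, edgeR adjusted p = 0.121). Nr4a1, an immediate early gene, had a log2FC of 2.89 (edgeR adjusted p = 0.435), but with 73.6, 56.6 and 10.2 CPM in EBM its lowest EBM library was below the 12.1 CPM of CBM replicate 1. Other immediate early genes of the list went both ways. Those higher in EBM were Fosb (log2FC 0.68), Ier2 (0.68), Junb (0.52), Jund (0.51), Btg2 (0.42), Egr1 (0.375) and Atf3 (1.6). Their edgeR adjusted p was between 0.565 and 0.972. Those lower, besides Dusp1, were Fos (-1.31), Jun (-0.10), Ier3 (-0.16) and Zfp36 (-0.02), with edgeR adjusted p between 0.725 and 0.997. The remaining genes of the list were all higher in EBM. They were Nfkbia (0.76, without overlap), Socs3 (1.58, at most 2.39 CPM), Hsph1 (0.55), Dnajb1 (0.35), Hspa8 (0.35) and Hsp90aa1 (0.22). Their edgeR adjusted p was between 0.479 and 0.789. The list's mean log2 CPM, centred on each gene's mean, by replicate number, was 0.125, -0.412 and -0.933 in CBM, against 0.500, 0.460 and 0.261 in EBM. All EBM values were above all CBM values, but this rested on Hspa1a and Hspa1b. Leaving out this pair was a choice made after the values were seen. Of the other 19 genes, 14 had a log2FC above 0 and 5 below, with a median of 0.42. Their centred means were 0.277, -0.244 and -0.811 in CBM, against 0.307, 0.327 and 0.144 in EBM. CBM replicate 1 thus lay above EBM replicate 3. Ndel1, Coq10b and Trp53inp2 were chosen for not overlapping between the regions, so their separation cannot be compared with that of the list. Within CBM the list of 21 was highest in replicate 1 and lowest in replicate 3, as was Ndel1. Trp53inp2 was also lowest in CBM replicate 3 but highest in CBM replicate 2. Within EBM it had the same order of libraries as the list of 21. Without Hspa1a and Hspa1b the list was highest in EBM replicate 2, while Trp53inp2 was highest in EBM replicate 1. Coq10b was lowest in replicate 1 of both regions. With 3 libraries in a region such orders coincide easily, and they were not tested. The part of the digestion in the levels of the 3 genes was not tested.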

How the data were processed

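AE9a cells of CBM and EBM were compared by RNA-seq, with 3 libraries each. Libraries were made from rRNA-depleted RNA with a directional kit (the labels give the library type as mRNA). The authors deposited raw counts per gene, and HISAT2 2.0.5 and mm10 are named in the submitters' processing notes. The counting tool and its strand setting are not given in the sources used here. The deposited gene length was used for RPKM as it stood.

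Genes that passed filterByExpr were scaled by TMM and fitted with edgeR 4.0.16 (glmQLFit and glmQLFTest, Benjamini-Hochberg over 13352 genes), without a block. The test the authors used for this comparison is not given in the sources used here. The standard error is the log2 fold change over the square root of F. Log2 CPM used a prior count of 2. DESeq2 1.42.0, limma-voom (limma 3.58.1), RLE factors, other filters, the replicate block and omission of each library were alternatives. The code was tested on simulated data. No library pair within a region agreed within sampling noise (chi-square per degree of freedom at least 11.9). Intervals of 3 libraries are SDs, and floors cover counting error only.

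The members and lists were chosen with earlier results of these data known. Lists were written from general knowledge, and 1 of 174 symbols was matched through a RefSeq synonym. Named genes were the members and paralogs, the 4 genes of smallest p in each pathway list, the nearest tested genes on each side and the 3 closest by each r. Other named genes were chosen after their values were seen.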

Additional observations from a re-analysis of the deposited data

How the results depend on the processing

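The log2 fold changes moved by less than the spread between libraries in all 12 alternatives, from 0.70 to 0.80 for Ndel1, 0.92 to 1.06 for Coq10b and 2.06 to 2.55 for Trp53inp2. The 0 genes at an adjusted p under 0.05 in edgeR (1056 at an unadjusted p) became 175 in DESeq2 and 40 when every gene with at least 1 count was tested, and stayed 0 in the other alternatives, limma-voom included. At an unadjusted p under 0.05, DESeq2 gave 1 dynein and dynactin gene in place of 2. With every gene of at least 1 count these became 1 for dynein and dynactin, 1 for the NDEL1 partners and 11 in place of 6 for the dissociation list. With each library left out, the unadjusted count ran from 678 (without CBM replicate 3) to 1136, and the count of genes with EBM above CBM from 1469 to 1824 in place of 998, where fewer libraries must be separated. Over the same omissions the counts ran from 0 to 2 for dynein and dynactin, 0 to 2 for the NDEL1 partners, 1 to 5 for ATG8, 1 to 2 for the TRP53INP2 partners, 1 to 2 for the coenzyme Q users and 6 to 10 for the dissociation list. The cause was not tested.

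With the replicate block the log2 fold changes were 0.74 for Ndel1, 0.99 for Coq10b and 2.37 for Trp53inp2, with 0 genes at an adjusted p under 0.05 and 1203 at an unadjusted p. Deviations of same-numbered libraries correlated with r of 0.68, -0.2 and 0.2, and CBM replicate 2 was closest to EBM replicate 3 (0.51), so the numbers were not taken as pairs. Trp53inp2 in CBM rests on 29 to 58 counts, which limits its precision.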
